A study of Homo sapiens with 4 samples.

Results

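miR-21 was followed through 4 small RNA libraries of PC-3 cells, a long-established line from a human prostate tumour. The entry was chosen by name, as every listed miRNA named miR-21 with or without an arm suffix. This gave 1 entry, hsa-miR-21-5p, of 1096 entries in the table (516 catalogue miRNAs, whose prefix hsa- is left out here, and 580 predicted ones). The opposite arm, miR-21-3p, is not analysed here. The control group was 2 libraries of PC-3 cells with no treatment. The other group was 2 libraries of PC-3 cells given apelin, a secreted peptide ligand of the APJ receptor, at 10 µg/mL in the culture medium for 24 h. All cells grew in DMEM with fetal bovine serum, and the groups share this 1 line, so they model a single tumour. Whether 2 libraries of a group stem from different cultures is not stated, so every p-value reflects only how these libraries vary, and that variation may be technical.

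A mature miRNA guides an Argonaute protein to messenger RNAs that pair with its seed, the bases just after its 5′ end, and lowers their stability or translation. miR-21 is known as an oncomiR: it is abundant in most carcinomas, is induced through STAT3, AP-1 and NF-kB, and represses the tumour suppressor PDCD4 and the matrix protease inhibitor RECK. In prostate cancer cells it has been tied to growth without androgen and to invasion.

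The mature strand comes from 1 hairpin gene, MIR21, at chr17:59841266-59841337 on the plus strand (GRCh38.p14, RefSeq). In GENCODE release 29 the hairpin lies inside VMP1, in exon 1 of VMP1-216, a retained-intron transcript with no annotated coding or UTR part there. The hairpin is shown to place the strand that was counted, with miR-21-5p in capitals at bases 8 to 29 of its 72 bases.
MIR21 hairpin: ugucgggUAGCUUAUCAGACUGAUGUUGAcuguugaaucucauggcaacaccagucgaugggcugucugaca
The RefSeq table holds 2 mature miRNAs with the seed of miR-21-5p (bases 2 to 8, in capitals), and the other of them, miR-590-5p, is not analysed here.
miR-21-5p: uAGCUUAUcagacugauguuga
miR-590-5p: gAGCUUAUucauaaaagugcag
Of the other 9 most abundant miRNAs, which miR-21-5p is set against, 8 are shown with their seeds, and miR-30d-5p is named only. miR-92a-1-3p is shown by the RefSeq sequence of miR-92a-3p. miR-221-3p and miR-222-3p share one, and so do miR-125a-5p and miR-125b-5p.
miR-100-5p: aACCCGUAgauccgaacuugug
let-7a-5p: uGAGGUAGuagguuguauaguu
miR-221-3p: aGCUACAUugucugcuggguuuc
miR-222-3p: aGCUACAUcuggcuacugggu
miR-125a-5p: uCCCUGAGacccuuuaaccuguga
miR-125b-5p: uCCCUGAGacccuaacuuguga
miR-23a-3p: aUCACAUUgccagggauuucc
miR-92a-3p: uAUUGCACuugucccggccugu
Of 451 other listed miRNAs with a sequence in that table, 0 shared a run of 12 bases with miR-21-5p. Among these there is therefore no near-copy of that kind with which its reads could be split. The predicted entries and the catalogue miRNAs without a sequence there were not compared. The table lists miR-21-5p at 23 nt, against 22 nt in RefSeq. A listed length 1 nt over that of RefSeq was found for 109 of 452 matched miRNAs, and an equal one for 213.

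Library totals ran from 5322429 to 6014838 counts. TPM here is a count per 1000000 counts of its library, and 1 count is worth 0.166 to 0.188 TPM. Of the epithelial markers miR-200b-3p (6467 to 6915 TPM) and miR-200a-3p (903 to 1216 TPM) were plentiful, while miR-200c-3p stood at 23.0 to 33.3 TPM. Also on that list, miR-205-5p stood at 72.3 to 97.7 TPM. miR-203a-3p had 2.49 TPM in control 1 and 0 in control 2, apelin 1 and apelin 2, and miR-141-3p is not analysed here. Summed over the listed markers, 3 of 7 blood miRNAs held 29.1 to 40.4 TPM, 3 of 5 stromal ones 4.42 to 6.48 TPM and 1 of 2 endothelial ones 6.32 to 13.7 TPM. The blood sum was 40.4 and 37.8 TPM in the controls and 35.9 and 29.1 TPM with apelin, and the endothelial sum was highest in apelin 2. Of the blood and stromal markers miR-223-3p was at 0 in control 2 and apelin 2, miR-150-5p in apelin 1, miR-143-3p in control 1 and apelin 2, and miR-214-3p in control 2. Their part in the results was not tested.

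miR-21-5p was counted 549777 and 583530 times in controls 1 and 2, and 605745 and 958935 times in apelin libraries 1 and 2. This is 91403, 103045, 113810 and 168194 TPM. Both apelin libraries lay above both controls, apelin 1 narrowly and apelin 2 by a wide margin. As a share of all counts it was 9.14% in control 1 (95% interval 9.12 to 9.16%), 10.3% in control 2 (10.28 to 10.33%), 11.4% in apelin 1 (11.35 to 11.41%) and 16.8% in apelin 2 (16.79 to 16.85%). These exact Clopper-Pearson intervals cover at most counting error, and treat each read as independent. Reads amplified by PCR can stem from the same molecule unless molecular identifiers mark them. The intervals may therefore be too narrow even for counting error. The intervals are narrow at this depth and say nothing of the spread between libraries. miR-21-5p ranked second in control 1, behind miR-100-5p, a miRNA that represses mTOR, and first in the other 3 libraries.

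The 1096 entries were far from even. In control 1 the 1054 least abundant other entries together held no more counts than miR-21-5p alone, and in apelin 2 the 1068 least abundant did. Only 586 of the 1096 entries had any count in control 1, and 521 in apelin 2. Many of the least abundant entries thus had no counts there.

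The control mean was 97224 ± 8232 TPM (SD, n = 2), and the apelin mean was 141002 ± 38455 TPM (SD, n = 2). The share was 4.38 percentage points higher with apelin (exact permutation test over the 4 libraries, two-sided, p = 0.33, the smallest this design can give). Without apelin 2 that difference was 1.66 points, and without apelin 1 it was 7.10 points. The quasi-likelihood test of edgeR, run on counts scaled by TMM, gave a log2 fold change of 0.57 (SE 0.27, 95% interval -0.32 to 1.45) and an adjusted p = 0.627. It did not pass, and neither did any of the 263 tested entries (0%). Unadjusted, 15 of 263 entries (5.7%) had a p under 0.05, and 47 entries had a smaller p than miR-21-5p. DESeq2 called 53 of 263 (20.2%) without miR-21-5p among them (adjusted p = 0.220). The log2 fold change was 0.15 without apelin 2 and 0.84 without apelin 1, with edgeR adjusted p = 0.725 and 0.279. In these fits the apelin group is 1 library, assumed to vary as the controls do, so the p-values bear little on stability. Both apelin libraries lay above both controls for 55 of the 263 tested entries (20.9%), miR-21-5p being 1 of them.

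Library against library, the difference within the apelin group was larger than some differences between groups. apelin 2 stood at 1.48 times apelin 1, while apelin 1 stood at 1.10 times control 2 and at 1.25 times control 1. apelin 2 stood at 1.63 times control 2 and 1.84 times control 1, and control 2 at 1.13 times control 1. Other miRNAs give a scale for these steps, taken over 206 other tested catalogue miRNAs above 0 in all libraries. From apelin 1 to apelin 2 the step of miR-21-5p, 0.56 on the log2 scale, was larger in size than that of 176 of the 206 (85.4%), whose median size was 0.30. From control 1 to control 2 its step was 0.17, larger than that of 112 of the 206 (54.4%), with a median of 0.16. From control 2 to apelin 1 it was 0.14, and 80 of the 206 (38.8%) moved less, with a median of 0.19. Apelin 1 thus differed from control 2 by less than the typical miRNA did, and apelin 2 differed from control 2 by more than 192 of the 206 (93.2%). A library here is a pooled lysate, in which more miR-21-5p per cell and more cells with a high level cannot be told apart.

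**Figure D1:**
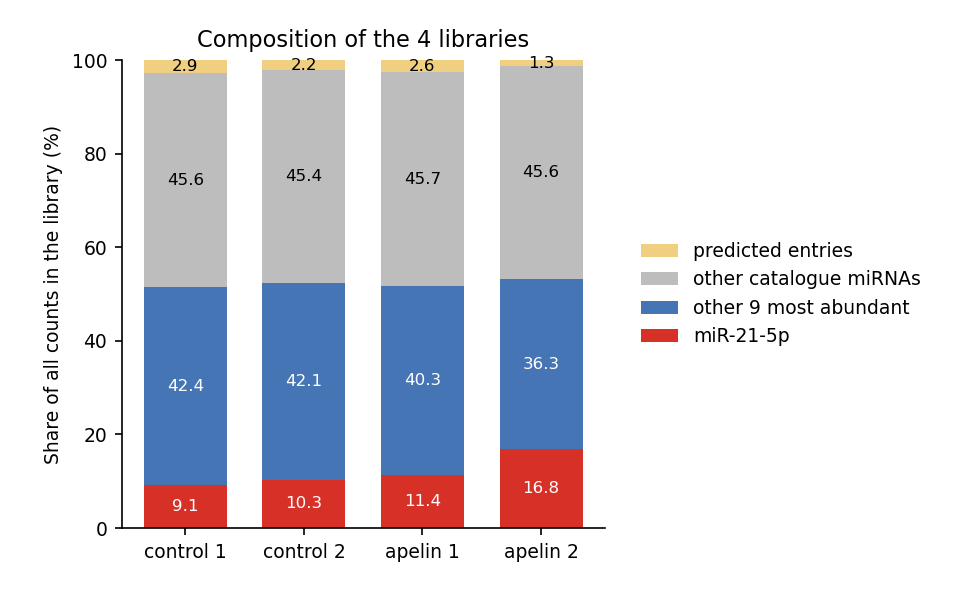
Share of all counts (%, stacked to 100) held in each of the 4 libraries by miR-21-5p, the other 9 of the 10 most abundant catalogue miRNAs, all other catalogue miRNAs and the predicted entries. The share of miR-21-5p reaches 16.8% in apelin 2, the other 9 stand at 36.3% there, and the other catalogue miRNAs stay between 45.4 and 45.7% in all 4 libraries.

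The counts of a library sum to a fixed total, so a larger share of 1 miRNA has to be met by smaller shares of others. In apelin 2 miR-21-5p had 404626 more counts than the 554309 it would have at the mean control share, a gain of 7.10 percentage points. In apelin 1 the excess was 88277 counts, or 1.66 points. The other 9 of the 10 most abundant miRNAs held 42.4% and 42.1% of the counts in the controls, 40.3% in apelin 1 and 36.3% in apelin 2. The catalogue miRNAs outside the top 10 held 45.6%, 45.4%, 45.7% and 45.6%. The predicted entries held 2.87%, 2.17%, 2.62% and 1.29%. Against the control mean, the other 9 abundant miRNAs were together 1.90 points lower in apelin 1 and 5.93 points lower in apelin 2. The predicted entries were 0.098 points higher in apelin 1 and 1.23 points lower in apelin 2. In the composition plot the higher share of miR-21-5p thus goes with a lower sum of the other 9. In apelin 2 it also goes with a lower sum of predicted entries, while the sum of the less abundant catalogue miRNAs is almost constant. As a percent of counts without miR-21-5p, the other 9 held 46.6% and 46.9% in the controls, 45.5% in apelin 1 and 43.6% in apelin 2. Their sum was thus lower with apelin also when miR-21-5p was left out of the total. These are shares of a closed total, and which of them changed in amount per cell was not measured.

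The 5 entries with the largest loss of share in apelin 2 against the control mean were let-7a-5p, miR-125a-5p, miR-125b-5p, NovelmiRNA-563 and miR-100-5p. let-7a-5p, of the family that represses RAS and HMGA2, held 5.40% and 5.67% in the controls, 4.38% in apelin 1 and 3.93% in apelin 2. miR-125a-5p, which represses ERBB2 and ERBB3, held 3.56%, 3.16%, 3.16% and 2.13% in the same order. miR-125b-5p, its seed partner, held 4.84%, 5.15%, 5.05% and 3.82%, so it was lower in apelin 2 alone. miR-100-5p held 9.56%, 9.17%, 8.34% and 8.60%. NovelmiRNA-563, a predicted entry, held 2.03% of control 1 and was at 0 in the other 3 libraries, so its loss came from 1 control. The 5 together were 3.34 points lower in apelin 1 and 5.78 points lower in apelin 2, with -1.02 points in each from the predicted entry. Catalogue miRNAs other than miR-21-5p moved both ways. In apelin 2, 189 gained (4.32 points together) and 289 lost (-10.2 points). In apelin 1, 237 gained (3.23 points) and 251 lost (-4.98 points).

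Some reads may be counted in more than 1 entry. The sources used here do not say how the authors assigned reads that match several copies. Some mature miRNAs are listed once per hairpin copy, and these entries (for example miR-92a-1-3p beside miR-92a-2-3p and miR-92a-3p) stand beside each other with nearly the same counts. Merging 14 such entries into 6, with the highest count kept in each library (a setting chosen after seeing the data), removed 11.4 to 12.6% of each library's counts. miR-21-5p then held 10.4%, 11.6%, 13.01% and 19.1%, and kept the same ranks. The difference between groups became 5.02 points, and the edgeR log2 fold change stayed at 0.57.

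Argonaute sees the seed, so the same counts were also summed by seed over 457 of 508 catalogue names with a RefSeq sequence, which held 88.8 to 91.7% of the merged counts. By seed, miR-21-5p was not the leading group in the controls. The let-7 seed, with 9 members, held 13.2% and 12.8% there, and miR-21-5p ranked 4 in control 1 and 2 in control 2. With apelin the let-7 seed held 10.8% and 10.9%, and miR-21-5p ranked first in both libraries. The seed shared by miR-221-3p and miR-222-3p, known repressors of the cell cycle inhibitor p27, held 10.55% and 10.46% in the controls and 11.0% and 10.5% with apelin. The miR-125 seed held 9.58%, 9.38%, 9.39% and 6.75%. In apelin 1 the 13.01% of miR-21-5p is still under the let-7 share of control 1, so its first place there goes with a lower let-7 share. In apelin 2 its 19.1% is above every let-7 share. The seed shares are of totals that include miR-21-5p, so a higher share of it by itself lowers that of let-7. No test was run on the seed sums.

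Ratios of 2 counts in the same library do not depend on how libraries are scaled. miR-21-5p was set against each of the other 9 most abundant miRNAs in this way. Its count was 0.956 times that of miR-100-5p in control 1, 1.12 times in control 2, 1.36 times in apelin 1 and 1.96 times in apelin 2. Against let-7a-5p it was 1.69, 1.82, 2.60 and 4.27 times, the widest separation of apelin 1 from the controls among the 9. Against miR-222-3p it was 1.85, 2.06, 2.13 and 3.45 times, so apelin 1 sat close to control 2. Against miR-23a-3p, whose 2 control ratios were 2.797 and 2.795, it was 3.23 in apelin 1 and 4.85 in apelin 2.

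**Figure D2:**
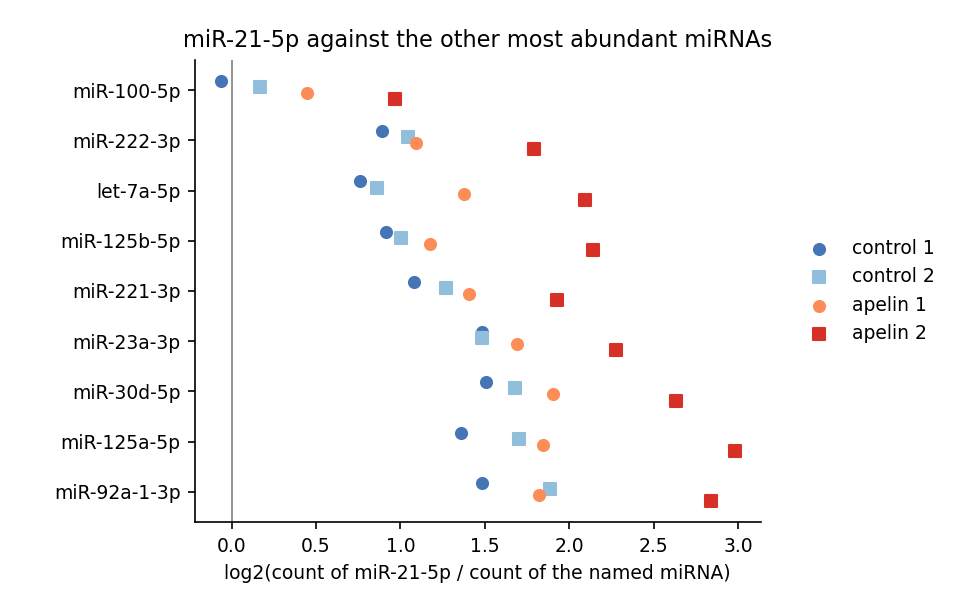
log2 of the count of miR-21-5p over the count of each of the other 9 most abundant miRNAs, 1 point per library. In 8 of the 9 rows both apelin libraries lie to the right of both controls, and apelin 2 lies farthest right in every row.

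Both apelin ratios lay above both control ratios for 8 of the 9. The exception was miR-92a-1-3p, with nearly the same counts as 2 other entries, at 2.80 and 3.70 times in the controls and 3.54 and 7.17 times with apelin. The mean log2 ratio was higher with apelin by 0.47 (miR-222-3p) to 0.93 (let-7a-5p). The exact permutation p was 0.33 for each of the 8, or 0.375 adjusted over the 9 ratios, and this design allows no smaller raw p. The 9 ratios share their numerator and are not independent. Over all 206 other miRNAs, the ratio was higher in both apelin libraries for 117 (56.8%), lower in both for 5 and overlapping for 84. Over all ordered pairs among these miRNAs 21.6% of ratios were higher in this way, and the median miRNA had 24. Counts above that of miR-21-5p were found for 19 miRNAs, up to 185.

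A larger share of 1 abundant miRNA scales down the TPM of all others, by the share that it takes from the total. miR-21-5p left 5465061 and 5079349 counts to the other entries in the controls, 4716684 in apelin 1 and 4742423 in apelin 2. Against the mean of the controls this shifts every other TPM by -0.027 on the log2 scale in apelin 1, which is 1.84% lower, and by -0.12 in apelin 2, which is 7.86% lower. For the controls themselves the same shift was 0.65% up in control 1 and 0.64% down in control 2. The shift is the same for every other entry of a library, so it can turn only those whose difference is smaller than it.

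TPM values were therefore recomputed with miR-21-5p left out of the total. Over the 262 other tested entries, on log2(TPM + 1), 139 were lower and 123 higher with apelin when it was counted, and 116 were lower and 146 higher when it was left out. The median difference went from -0.031 to 0.038. In apelin 2 alone 27 entries turned from lower to higher. The upward direction of these changes follows from the arithmetic, and only their number is a measurement. Both apelin libraries lay below both controls for 46 of the 262 with miR-21-5p in the total, and for 34 (13%) without it. Both lay above for 54 with it and for 65 (24.8%) without it.

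**Figure D3:**
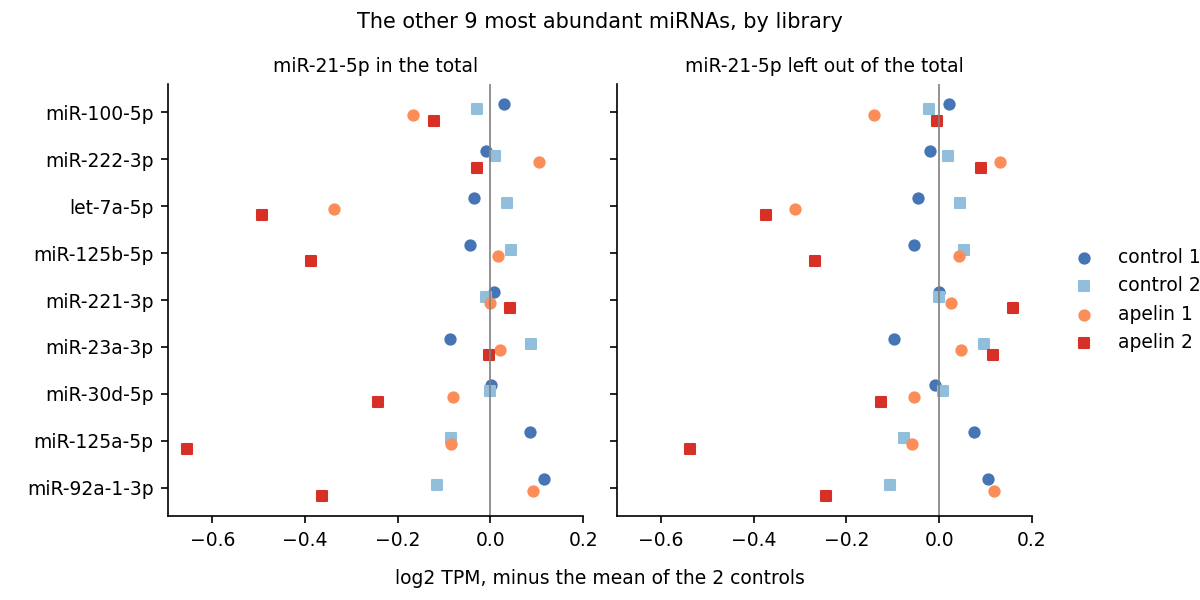
log2 of TPM minus the mean of the 2 controls, for the other 9 most abundant miRNAs and 1 point per library, with miR-21-5p in the total (left) or left out of it (right). Leaving it out moves apelin 2 to the right by 0.12 in every row, so that miR-100-5p comes to overlap the controls while let-7a-5p stays below them.

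Among the abundant miRNAs, 4 of 9 changed their standing. Over all 262 other tested entries 11 went from overlap to higher and 12 from lower to overlap. miR-100-5p had 95571 and 91678 TPM in the controls and 83399 and 86007 TPM with apelin, below both controls. Without miR-21-5p in the total it had 105185 and 102211 in the controls, and 94110 and 103397 with apelin, where apelin 2 lay between the controls. miR-125a-5p also went from below both controls to overlap. With miR-21-5p in the total its apelin 1 value (31639 TPM) had been barely under that of control 2 (31645 TPM). miR-222-3p had 49305 and 50024 TPM in the controls and 53388 and 48692 TPM with apelin. Without miR-21-5p it had 54265 and 55771, and 60245 and 58538, so both apelin libraries came to lie above both controls. miR-221-3p did the same. let-7a-5p and miR-30d-5p stayed below both controls either way. For let-7a-5p the recomputed values were 59416 and 63238 in the controls and 49454 and 47312 with apelin.

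The TMM factors of edgeR took up part of this shift. With miR-21-5p in the table they were 0.980, 1.035, 1.023 and 0.964 in the order control 1, control 2, apelin 1 and apelin 2. With totals and factors computed without it they were 0.946, 1.03, 1.01 and 1.01, so apelin 2 moved most. Under that scaling the log2 fold change of miR-21-5p was 0.59 (edgeR adjusted p = 0.607), and the number of called entries was again 0 of 263 (0%). The edgeR fold changes of the other abundant miRNAs moved little. For miR-100-5p the value went from -0.124 to -0.105, and for let-7a-5p from -0.394 to -0.373.

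The miRNAs nearest to miR-21-5p in pattern were sought by the root mean square difference of log2 TPM, each centred on its mean over the 4 libraries, among the 206. With 4 libraries no correlation is given. The nearest were miR-101-2-3p and miR-101-3p, which are copy names with nearly the same counts (differences of 0.033 and 0.039), miR-96-5p (0.040), miR-582-5p (0.047) and miR-651-5p (0.068). miR-101-3p, which represses the histone methyltransferase EZH2, had 380.6 and 454.7 TPM in the controls and 509.2 and 725.4 TPM with apelin. miR-96-5p, a repressor of FOXO1, had 210.6 and 246.3 TPM in the controls and 274.1 and 419.2 TPM with apelin. miR-582-5p and miR-651-5p stood at 12.5 to 29.3 TPM. All 5 had their lowest value in control 1 and their highest in apelin 2, as the rule that chose them favours. Their edgeR log2 fold changes were 0.55 to 0.65, and none passed (adjusted p = 0.627 for each). With a replicate block, on 207 catalogue miRNAs above 0 in all libraries, edgeR called 30 of the 207. Among them were miR-21-5p (adjusted p = 0.00636) and 4 of the 5. These 4 were miR-101-2-3p and miR-101-3p (adjusted p = 0.017), miR-96-5p (0.023) and miR-651-5p (0.019). This setting was added after seeing the data, and nothing in the labels pairs the libraries. A block on 4 libraries leaves little to estimate the spread of each miRNA, so its p-values lean on a spread shared across miRNAs. With the block on all tested entries miR-21-5p did not pass (edgeR adjusted p = 0.280). The 5 were chosen for their likeness to miR-21-5p, so their calls are not independent of its call.

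**Figure D4:**
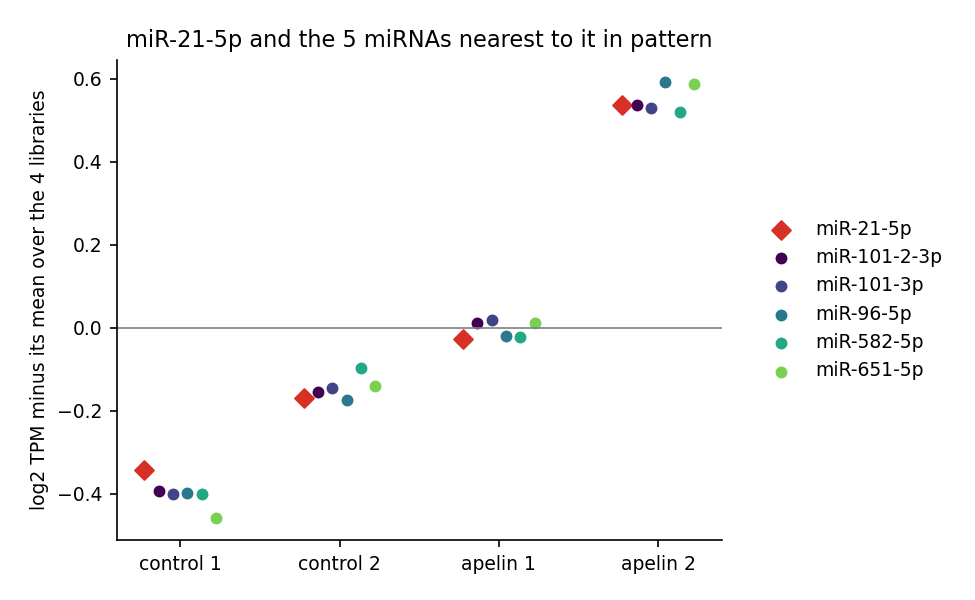
log2 TPM minus its mean over the 4 libraries, for miR-21-5p (red diamonds) and the 5 miRNAs nearest to it in pattern, by library. All 6 sit lowest in control 1 and near 0.5 to 0.6 in apelin 2.

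The seed partner of miR-21-5p lies in the MIR590 hairpin. The other arm of that hairpin, miR-590-3p, which has another seed and was singled out after its values were seen, had 13.97 and 16.8 TPM in the controls and 21.4 and 24.0 TPM with apelin. Both apelin libraries lay above both controls, as they did for 55 of the 263 tested entries (20.9%). miR-590-3p was not called in edgeR (log2 fold change 0.59, adjusted p = 0.627).

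Of 10 miRNAs listed as neighbours of MIR21 on chromosome 17, 2 are in the table, and the other 8 are not analysed here. miR-454-3p, whose hairpin lies 704 kb upstream, had 422.6 and 377.4 TPM in the controls and 384.8 and 468.5 TPM with apelin. miR-301a-5p, 690 kb upstream, had 15.1 and 23.3 TPM in the controls and 22.2 and 28.8 TPM with apelin. Both overlapped between groups, and neither was called in edgeR (adjusted p = 0.871 and 0.667).

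Other miRNAs induced by STAT3, AP-1 or NF-kB, the factors known to act on MIR21, are described as a list by their counts. Of 10 there were 9 tested, with 0 called by edgeR (0% of all tested entries) and 1 with an unadjusted p under 0.05 (5.7% of all). Both apelin libraries lay above both controls for 2 of the 9 and below for 1, beside 20.9% and 17.5% of all tested entries. These counts are near the background. The median was 0.041, beside -0.018 over all tested entries, with 6 positive values and 3 negative ones. miR-146a-5p, an NF-kB target that represses TRAF6 and IRAK1, had 5644 and 5421 TPM in the controls and 7569 and 5846 TPM with apelin, so both apelin libraries were above both controls and apelin 1 was highest. miR-9-5p, an NF-kB target that represses NFKB1, had 297.8 and 299.0 TPM in the controls. With apelin it had 300.1 and 399.2 TPM (edgeR adjusted p = 0.688). Both apelin libraries were above both controls, but apelin 1 only barely, so apelin 2 alone stood apart. miR-181b-5p, reported beside miR-21 as a STAT3 target, had 1397 and 1506 TPM in the controls and 1175 and 1049 TPM with apelin, below both controls (edgeR adjusted p = 0.627). miR-31-5p stood at 7930 to 8511 TPM in all libraries. miR-155-5p, an NF-kB target of immune cells, had 1.83 TPM in control 1 and 0 in the other libraries, where 0 counts allow up to 0.564 TPM.

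**Figure D5:**
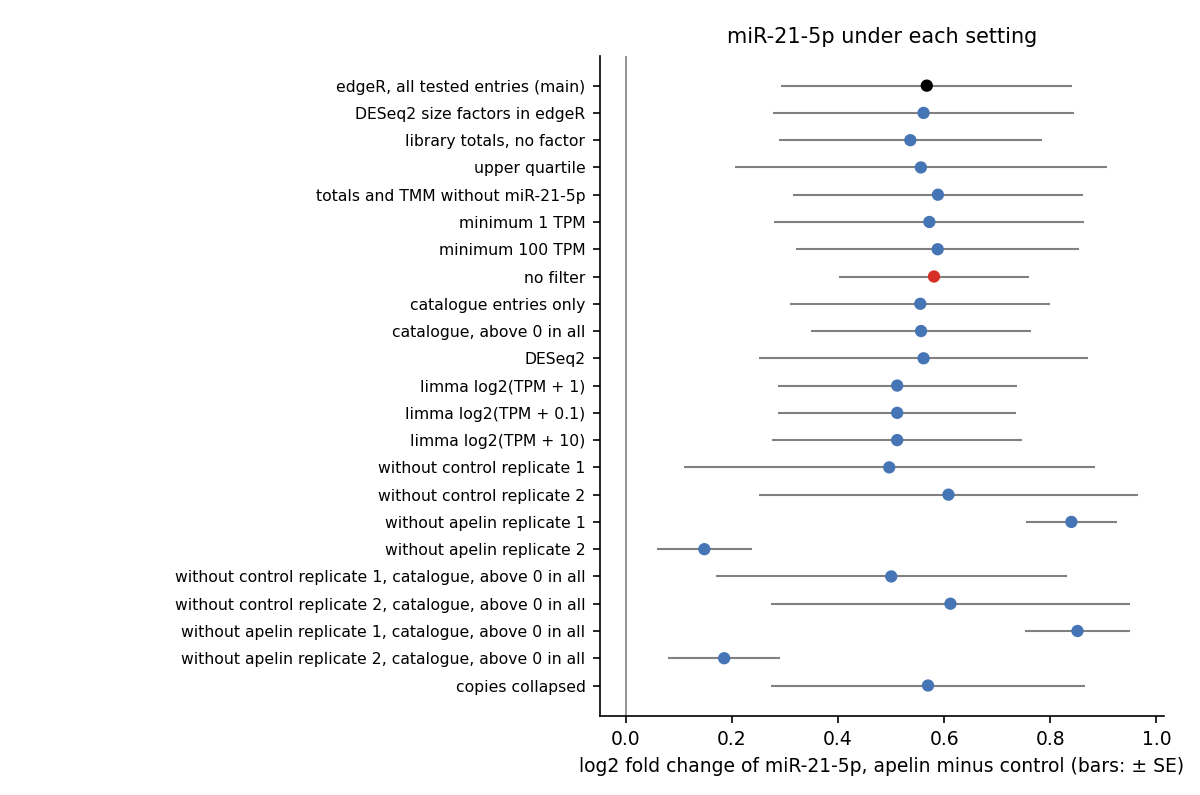
log2 fold change of miR-21-5p, apelin minus control, under the main fit (black) and the alternative fits without a replicate term, with bars of ± 1 SE. All points lie above 0, the lowest is 0.15 without apelin 2, and the red point marks the 1 plotted setting past the adjusted threshold of 0.05 (no filter).

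Over 24 other settings the log2 fold change of miR-21-5p was positive in all, from 0.15 to 0.85, and from 0.51 to 0.59 in the 16 that kept all libraries. Its adjusted p ran from 0.00636 to 0.987. With no filter on low entries edgeR called it (adjusted p = 0.0250) among 52 of 1096 entries (4.74%). The value depends on apelin 2 more than on the scaling, the filter or the tool, as the plot of settings shows.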

How the data were processed

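Small RNA from 2 control and 2 apelin-treated PC-3 libraries was counted. The authors deposited 1 table with raw read counts and TPM per mature miRNA and a length. The submitters' processing notes name Trimmomatic 0.30 for trimming, and DESeq2. Aligner, catalogue and build were not given in the sources used here. TPM values as deposited by the authors equal counts per 1000000 of the library total, with no length term. In apelin 2 they imply a total of 5701353, which is 5 counts under the sum. 0 columns went unmatched.

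Entries with a mean of at least 10 TPM were tested with edgeR 4.0.16 (TMM, quasi-likelihood, Benjamini-Hochberg, threshold 0.05). SE was taken as the size of the fold change (log2) divided by √F. Alternatives used DESeq2 1.42.0 and limma 3.58.1 on log2(TPM + pseudocount), other scalings and filters, a replicate block, and libraries left out, all on R 4.3.3. Ratios and shares used exact permutation tests (scipy 1.17.1). Scripts were tested on simulated counts. Sequences came from RefSeq (GRCh38.p14).

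The member and the lists were chosen with earlier results of these data known. Named miRNAs were miR-21-5p, the other 9 most abundant, list members, the 5 nearest in pattern and the 5 that lost most share in apelin 2. One planned list is not reported here.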

Additional observations from a re-analysis of the deposited data

How the results depend on the processing

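The log2 fold change of miR-21-5p, 0.57 in edgeR, passed the threshold in 2 of 24 other settings: 0.58 with no filter (adjusted p = 0.0250), and 0.52 with a replicate block on 207 tested catalogue miRNAs with counts in every library, a setting added after seeing the data (adjusted p = 0.00636). Nothing in the labels pairs the libraries, and over the 207 the deviations of libraries with the same number had a correlation of 0.31. A block on 4 libraries leaves little to estimate the spread of each miRNA, so its p-values lean on a spread shared across miRNAs. With a replicate block on all tested entries the log2 fold change of miR-21-5p was 0.53 (edgeR adjusted p = 0.280). The cause of these changes was not tested. Of the 24 settings 6 were added after seeing the data.

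The number of called entries, 0 in edgeR, was 4 with upper quartile scaling, 4 at a minimum of 100 TPM, 52 with no filter, 1 on catalogue entries only, 53 with DESeq2, 4, 5 and 4 with limma at pseudocounts of 1, 0.1 and 10, and 30 with a replicate block on the 207. Leaving out a library gave 0 to 19 (11 without control 1 and 19 without control 2). The median difference of the other tested entries, -0.031, was 0.038 with miR-21-5p left out of the total, by construction, and -0.071 to 0.022 with a library left out (0.022 without apelin 2). The share difference was 4.39 points over catalogue counts and 4.35 over entries above 0 in all libraries. All 9 ratio differences kept their direction with any library left out.

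Of 14 other miRNAs with a fitted fold change, 3 reversed in some setting, all near 0: miR-23a-3p was -0.00085 with upper quartile scaling. With a library left out, miR-221-3p ran from -0.082 to 0.089, miR-23a-3p from -0.061 to 0.069 and miR-92a-1-3p from -0.32 to 0.016. On the 207 with a library left out, the reversed values were -0.0094 (without control 2) and -0.045 (without apelin 2) for miR-221-3p, -0.038 (without control 1) and -0.023 (without apelin 2) for miR-23a-3p, and 0.031 and 0.043 for miR-92a-1-3p likewise. In some setting 7 of the 14 passed the threshold. The share of all tested entries that passed in some setting was not counted, so this number has no background. DESeq2 alone called 53 of 263 entries (20.2%), and the replicate block on the 207 called 30. Of the 14, 5 had been chosen for their likeness to miR-21-5p. DESeq2 called let-7a-5p (-0.40, adjusted p = 2.67e-09) and miR-30d-5p (-0.15, adjusted p = 0.0112). The replicate block on the 207 called let-7a-5p (-0.41, adjusted p = 0.0191), miR-125a-5p (-0.36, adjusted p = 0.0368) and 4 of the 5 nearest in pattern. The planned ratio of miR-21-5p to miR-21-3p was not run, and depth limits no value of miR-21-5p itself.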
